A study of Homo sapiens with 6 samples.

Results

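MHC class I antigen presentation was followed here through 9 genes, picked by symbol out of 60480 gene identifiers in an RNA-seq count table of OE-19 cells. The genes encode heavy chains of MHC class I (*HLA-B*, *HLA-C*, *HLA-E* and *HLA-F*), the light chain (*B2M*), the peptide transporter (*TAP1* and *TAP2*), tapasin (*TAPBP*) and the transactivator *NLRC5*. OE-19 is an established line of adenocarcinoma of the esophagogastric junction (AEG). The 3 control libraries came from cells labelled as a control knockdown (shControl), and the 3 IGF2BP3 KD libraries from cells in which *IGF2BP3*, an RNA-binding protein and m6A reader, was knocked down (shIGF2BP3). The control libraries are also described as Puro, and what that name stands for is not given in the sources used here. All 6 were grown in RPMI1640 with serum, the labels name no other treatment, and the comparison asks which transcripts change with IGF2BP3 KD. The sources used here do not say whether the replicates were separate cultures or whether the IGF2BP3 KD libraries share 1 shRNA, so the p-values measure only the spread between these libraries.

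An MHC class I molecule is a heavy chain paired with β2-microglobulin, and it shows peptides from proteins made inside the cell to CD8 T cells. The proteasome cuts the proteins, the transporter TAP carries peptides into the endoplasmic reticulum, and tapasin holds an empty class I molecule next to TAP until a peptide is loaded. NLRC5 drives transcription of class I genes through a conserved promoter module. Interferons raise the expression of most of these genes, and loss of B2M or TAP is a known way for tumor cells to avoid T cells.

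Libraries held 53424071 to 69989087 counts. *IGF2BP3* had 6532 to 7416 counts in control libraries and 777 to 794 in IGF2BP3 KD libraries, so the targeted gene was lower in every library labelled as its knockdown. All 8 listed epithelial markers were tested, of which 2 rose and 3 fell, and their summed expression was 6630 to 6730 CPM (counts scaled to equal library size) in control and 6530 to 6650 CPM in IGF2BP3 KD cells. By the test given below, 9.87% of all tested genes rose and 10.6% fell. Of 12 leukocyte markers, *CD3D*, *CD3E*, *MS4A1* and *GNLY* had 0 counts in each library and *PTPRC* at most 8, while *LYZ* was at 2548 and 2534 CPM. Of the 4 leukocyte markers tested, only *CD68* rose, from 35.8 to 51.9 CPM, and it shares 81.6% of its exonic bases with a gene on the same strand. The summed leukocyte markers were at 2510 to 2730 CPM in control and 2540 to 2620 CPM in IGF2BP3 KD cells. Of 3 tested fibroblast and endothelial markers *COL1A1* rose, from 21.7 to 30.8 CPM, with *COL1A2* and *LUM* at 0 counts. That list summed to 21.7 to 24.5 and 29.8 to 34.7 CPM, and its part in the results was not tested. These are bulk samples, in which fewer cells expressing a gene and less RNA per cell cannot be told apart.

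Of the 9 genes, 6 rose in IGF2BP3 KD cells, 0 fell and 3 did not pass the test. The 6 were *HLA-B*, *HLA-C*, *HLA-E*, *B2M*, *TAP1* and *TAPBP*, with log2 fold changes from 0.19 to 0.69. Among all 19778 tested genes, 9.87% were called higher, 10.6% lower and 20.4% in either direction, by the same rule. The rule was an adjusted p under 0.05, where p came from the quasi-likelihood test of edgeR and was adjusted by Benjamini-Hochberg over all tested genes. The median log2 fold change of the 9 genes was 0.25, against 0.01 over all tested genes. At an unadjusted p under 0.05 the same test also gave 6 higher and 0 lower, and DESeq2 gave 6 higher and 0 lower. All 9 genes passed the low-count filter with a mean above 1 CPM in both groups. In each of the 9 the IGF2BP3 KD libraries did not overlap the control libraries, which was so in 35.8% of all tested genes.

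**Figure D1:**
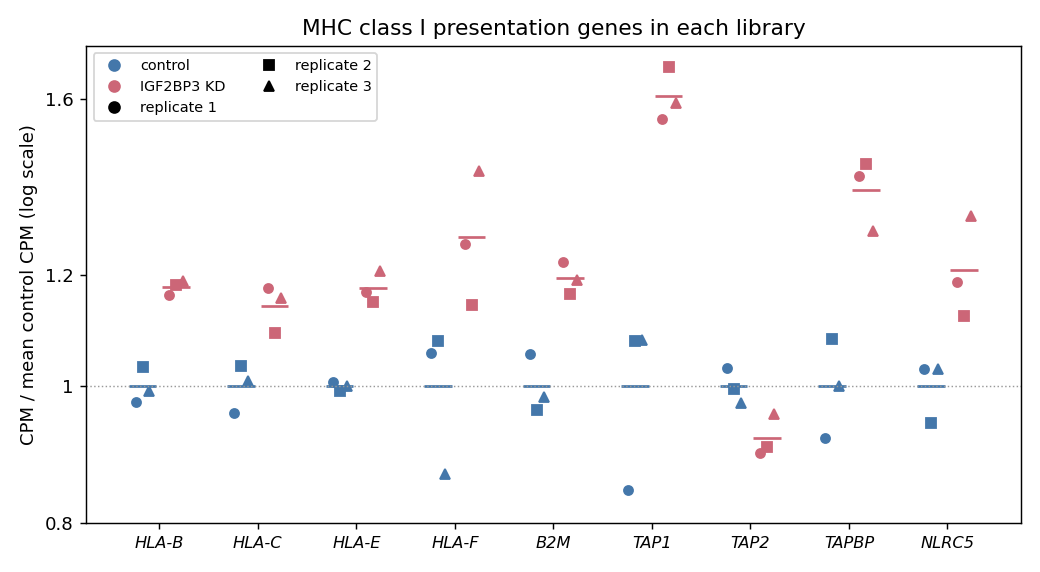
Expression of the 9 genes in each library, as CPM divided by the gene's mean control CPM (log axis); colors mark control and IGF2BP3 KD libraries, marker shapes the replicates and short lines the group means. The IGF2BP3 KD libraries lie above the control libraries in 8 genes and below them in *TAP2*.

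The classical heavy chains present peptides to T cells. *HLA-B* was at 24.6, 26.1 and 25.1 CPM in control replicates 1, 2 and 3 and at 29.3, 29.8 and 30.02 CPM in IGF2BP3 KD replicates 1, 2 and 3. Every IGF2BP3 KD library was above every control library, and the groups were tight. The increase was 1.18-fold, or 0.23 ± 0.06 on the log2 scale (SE; adjusted p = 0.0129). This call was lost without control replicate 3 (adjusted p = 0.0513) and without IGF2BP3 KD replicate 3 (adjusted p = 0.052), with log2 fold changes of 0.23 and 0.225. *HLA-C* was at 210, 227 and 221 CPM in control and at 258, 239 and 253 CPM in IGF2BP3 KD libraries. It rose 1.14-fold, by 0.19 ± 0.04 on the log2 scale (SE; adjusted p = 0.00445), the smallest change of the 6 called genes.

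The non-classical heavy chains are less variable between people than the classical ones. *HLA-E* shows leader peptides of other class I chains to the inhibitory receptor NKG2A on natural killer cells. It was at 73.2, 72.1 and 72.6 CPM in control and at 84.7, 83.4 and 87.6 CPM in IGF2BP3 KD libraries, which did not overlap. On the log2 scale the difference was 0.23 ± 0.04 (SE; adjusted p = 0.00169). *HLA-F* was scarce, with 73 to 108 counts in control and 98 to 129 counts in IGF2BP3 KD libraries. In CPM these were 1.52, 1.55 and 1.25 in control and 1.82, 1.64 and 2.05 in IGF2BP3 KD libraries. Its log2 fold change was 0.35 with an SE of 0.22, and the test did not call it (adjusted p = 0.327). The 95% interval of the log2 fold change, -0.13 to 0.83, holds both no change and a change larger than that of any other heavy chain here.

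Reads from heavy chain genes can align to each other, so their sum was also examined. In 150 bases, the length of 1 read, the canonical transcripts of these 4 genes share no stretch with the transcripts of another gene, and in 50 bases they share 1.9% to 6.8% of their stretches. The cell line's own alleles can differ from the reference, and how many of their reads were lost in alignment was not tested. The sum over *HLA-B*, *HLA-C*, *HLA-E* and *HLA-F* was 309, 327 and 320 CPM in control and 373, 354 and 373 CPM in IGF2BP3 KD libraries. The means were 319 ± 8.79 and 366.9 ± 11.05 CPM (SD, n = 3), a log2 ratio of 0.20. The groups did not overlap, and the two-sided exact permutation test gave p = 0.1, the smallest value that 3 against 3 libraries allow.

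The light chain *B2M*, whose protein pairs with class I heavy chains, rose with the heavy chains. It was at 388, 354 and 361 CPM in control and at 451, 428 and 437 CPM in IGF2BP3 KD libraries. The lowest IGF2BP3 KD library was above the highest control library. The change was 1.19-fold, or 0.25 ± 0.04 on the log2 scale (SE; adjusted p = 0.000467). The count ratio of *HLA-C* to *B2M* was 0.598 ± 0.0516 in control and 0.570 ± 0.0102 in IGF2BP3 KD libraries (SD, n = 3), and the groups overlapped (exact permutation p = 0.4, two-sided).

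The peptide transporter is made of TAP1 and TAP2, which pair to form 1 channel. Of their transcripts, that of *TAP1* passed the test and that of *TAP2* did not. *TAP1* had the largest change of the 9 genes, from 10.8, 13.7 and 13.8 CPM in control to 19.8, 21.5 and 20.3 CPM in IGF2BP3 KD libraries. Control replicate 1 was the lowest and lay apart from the other control libraries, yet all IGF2BP3 KD libraries were well above all of them. The increase was 1.61-fold, or 0.69 ± 0.10 on the log2 scale (SE; adjusted p = 0.000537), and the log2 value stayed between 0.575 and 0.74 when any 1 library was left out. *TAP2* was at 26.9, 26.0 and 25.4 CPM in control and at 23.4, 23.7 and 25.0 CPM in IGF2BP3 KD libraries. Here the IGF2BP3 KD libraries were the lower ones, by a small margin. The log2 fold change was -0.12 (SE 0.06), which was not called (adjusted p = 0.208), with a 95% interval from -0.25 to 0.01.

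The ratio of *TAP1* to *TAP2* counts does not depend on the scaling of the libraries, and was chosen for testing after the values were seen. It was 0.4, 0.528 and 0.541 in control and 0.843, 0.909 and 0.811 in IGF2BP3 KD libraries. The ratio thus went from 0.490 ± 0.078 to 0.855 ± 0.0496 (SD, n = 3), without overlap. The difference was 0.81 on the log2 scale (SE 0.15), with a two-sided exact permutation p of 0.1, the smallest possible. *TAP2* shares 34.1% of its 150-base stretches with ENSG00000250264, a gene on the same strand that runs through it and had 250 counts or more in each library. Reads from the shared part cannot be assigned to either gene. With the counts of both summed, the log2 fold change of *TAP2* was -0.10 (adjusted p = 0.331). Other genes also share exonic bases with *TAP1*, *HLA-F*, *HLA-B* and *TAPBP*, and whether counting used strand is not given in the sources used here. On the opposite strand, *PSMB8-AS1* shares 672 bases with *TAP1* and had at most 19 counts. *HLA-F* shares 674 bases with ENSG00000225864, 535 with *HLA-F-AS1* and 257 with *RPL23AP1*, all on the opposite strand, with at most 3, 92 and 2 counts. *HLA-B* shares 1421 bases (30.7%) with *DHFRP2* on the same strand and 671 with ENSG00000271581 on the other, both at 0 counts in each library, and 93 and 11 bases with genes at no more than 2 counts. With the counts of overlapping genes added, the log2 fold change of *TAP1* was 0.68, that of *HLA-F* 0.30 and that of *HLA-B* 0.24. *TAPBP* shares 1397 bases with ENSG00000289100 on the opposite strand, which is not among the counted identifiers, so no such sum could be made for it.

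**Figure D2:**
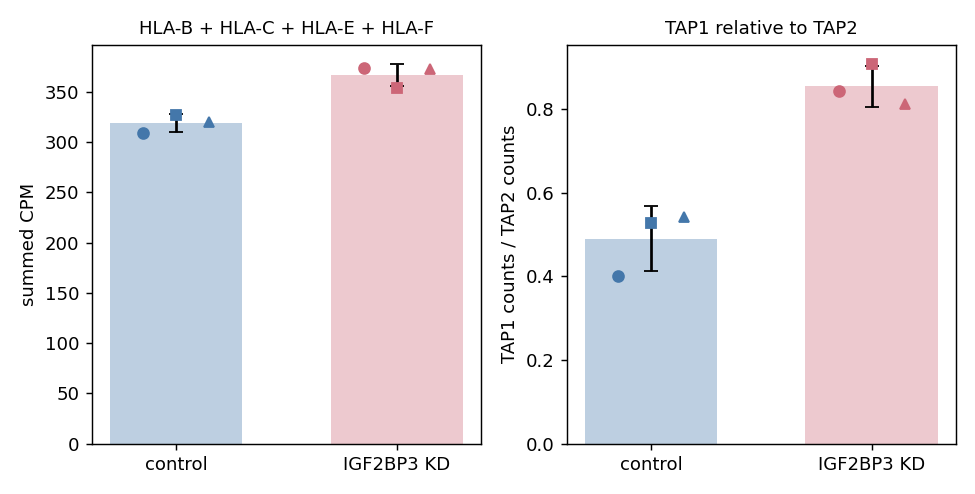
Left, CPM summed over *HLA-B*, *HLA-C*, *HLA-E* and *HLA-F*. Right, the ratio of *TAP1* to *TAP2* counts, in control and IGF2BP3 KD libraries; bars are means, error bars SD over 3 libraries, and points single libraries. The sum went from a mean of 319 to 367 CPM and the ratio from 0.490 to 0.855.

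Tapasin, encoded by *TAPBP*, bridges TAP and the empty class I molecule and helps to select tightly bound peptides. *TAPBP* was at 51.9, 61.0 and 56.5 CPM in control and at 79.7, 81.2 and 72.8 CPM in IGF2BP3 KD libraries. Both groups varied by several CPM, and the gap between them was larger than either range. The increase was 1.38-fold, or 0.46 ± 0.06 on the log2 scale (SE; adjusted p = 0.000406), the smallest adjusted p of the 9 genes. *NLRC5* was at 5.15, 4.72 and 5.16 CPM in control and at 5.95, 5.62 and 6.62 CPM in IGF2BP3 KD libraries. Its counts were 302 to 353 and 321 to 417, with a log2 fold change of 0.27 (SE 0.13) that was not called (adjusted p = 0.186). The 95% interval of -0.01 to 0.56 includes the change seen in the heavy chains.

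**Figure D3:**
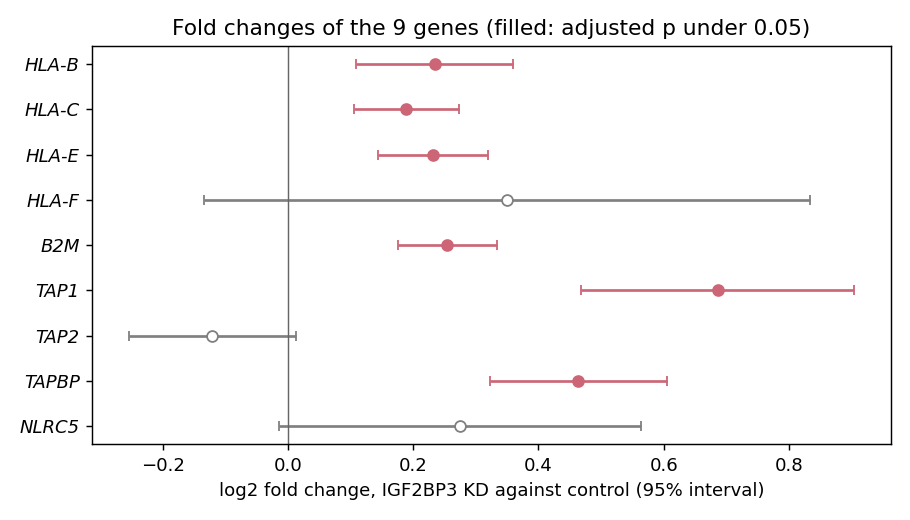
Log2 fold changes of the 9 genes between IGF2BP3 KD and control cells with 95% intervals from edgeR's quasi-likelihood fit; filled points passed an adjusted p under 0.05. *TAP1* (0.69) and *TAPBP* (0.46) lie farthest to the right, and the intervals of *HLA-F*, *TAP2* and *NLRC5* cross 0.

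Levels between genes were compared per length, as CPM divided by the length of the canonical transcript in kilobases. In control cells *B2M* was highest at 390 ± 19.0, followed by *HLA-C* at 142 ± 5.61, *HLA-E* at 28.5 ± 0.2135, *HLA-B* at 16.5 ± 0.480 and *TAPBP* at 16.4 ± 1.31 CPM per kilobase (SD, n = 3). *TAP1* was at 4.75 ± 0.640, *TAP2* at 4.63 ± 0.135, *HLA-F* at 0.972 ± 0.113 and *NLRC5* at 0.739 ± 0.0369 CPM per kilobase. Neighbors in this order overlapped in 2 places, *HLA-B* with *TAPBP* and *TAP1* with *TAP2*. In IGF2BP3 KD cells *TAP1* reached 7.64 ± 0.332 CPM per kilobase and no longer overlapped *TAP2* at 4.26 ± 0.148, and *TAPBP* at 22.6 ± 1.30 lay above *HLA-B* at 19.4 ± 0.225 in every library. The length used for *TAP2* includes the part it shares with ENSG00000250264, 34.1% of its 150-base stretches, where reads cannot be assigned. Its level per length can thus be too low in both groups, and its order against *TAP1* is not settled by these values. The level of *HLA-C* per length was 8.645 ± 0.15 times that of *HLA-B* in control cells and 8.38 ± 0.378 times in IGF2BP3 KD cells (SD, n = 3). How far this ratio reflects reads lost where *HLA-B* shares bases with other genes, or where alleles differ from the reference, was not tested.

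**Figure D4:**
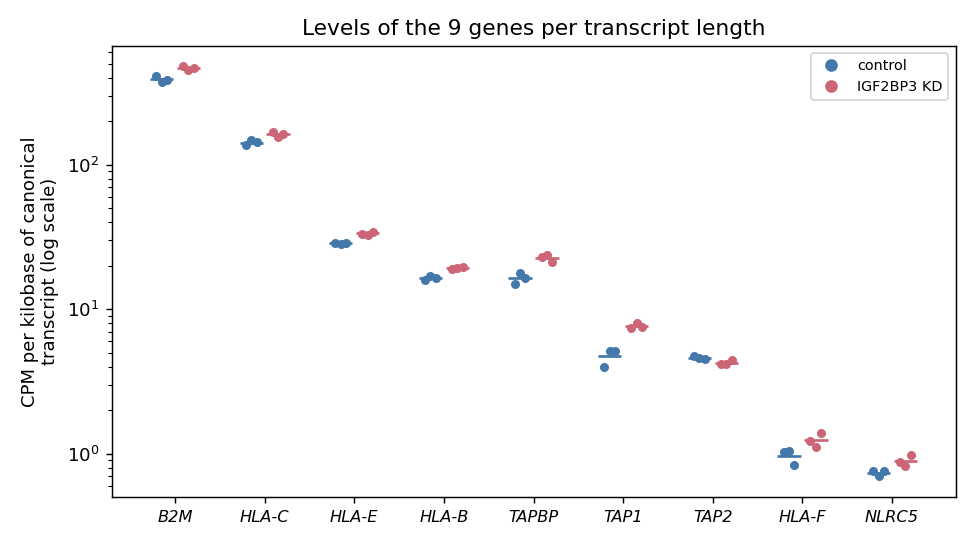
Level of each gene as CPM per kilobase of its canonical transcript (log axis), ordered by the control mean; points are libraries and lines group means. The genes span from *B2M* at 390 to *NLRC5* at 0.739 CPM per kilobase in control cells.

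Of the 9 genes, 7 lie on chromosome 6 of hg38, in the MHC region. They are *HLA-F* (ENSG00000204642, 29722775 to 29738528), *HLA-E* (ENSG00000204592, 30489509 to 30494194), *HLA-C* (ENSG00000204525, 31268749 to 31272130), *HLA-B* (ENSG00000234745, 31353872 to 31367067), *TAP2* (ENSG00000204267, 32821833 to 32838739), *TAP1* (ENSG00000168394, 32845209 to 32853816) and *TAPBP* (ENSG00000231925, 33299694 to 33314284) in GENCODE v44. *B2M* (ENSG00000166710) lies on chromosome 15 from 44711358 to 44718851 and *NLRC5* (ENSG00000140853) on chromosome 16 from 56989485 to 57083531. The nearer RefSeq start of *TAP1* is 488 bases from that of *PSMB9*, a subunit of the immunoproteasome transcribed in the other direction.

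Promoter windows of 300 bases (250 before to 50 after a start, RefSeq on GRCh38.p14) were given for 7 of the 9 genes and not for *HLA-E* and *NLRC5*. The interferon-stimulated response element (ISRE), to which IRF factors bind, was searched on both strands as GAAA followed, after any 2 bases, by GAAA. It was in windows of 5 of the 7 genes and in 3.57% of all 34796 distinct windows. The 5 include the called *B2M*, *TAP1* and *TAPBP* and the not called *TAP2* and *HLA-F*. The windows of *HLA-B* and *HLA-C* do not hold this exact pattern, and looser forms of the element were not searched. The stretches are shown because most of the 7 genes hold these letters upstream. Each is given on the strand of its gene with the match in capitals, which in *TAP1* and *HLA-F* is on the opposite strand.
TAPBP, chr6:33314079-33314108, minus strand: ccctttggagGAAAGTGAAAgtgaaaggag
B2M, chr15:44711369-44711398, plus strand: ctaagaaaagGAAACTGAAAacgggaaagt
TAP1, chr6:32853813-32853842, minus strand: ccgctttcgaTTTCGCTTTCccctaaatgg
TAP2, chr6:32838778-32838807, minus strand: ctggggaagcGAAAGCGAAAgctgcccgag
HLA-F, chr6:29723268-29723297, plus strand: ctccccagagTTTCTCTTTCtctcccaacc
The matches begin 20 bases before the RefSeq start in *TAPBP*, 138 in *B2M*, 128 in *TAP1*, 58 in *TAP2* and 156 in *HLA-F*. *B2M*, *TAP1* and *TAPBP* each hold another match that overlaps the one shown.

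Other factors of class I promoters bind the letters TGACG (the core of the cyclic AMP response element) and CCAAT. On both strands, TGACG was in windows of 4 of the 7 genes, against 24.5% of all windows, and CCAAT in 5 of the 7, against 34.6%. The windows of *HLA-B* and *HLA-C*, which moved by similar amounts, hold TGACG in nearly the same surroundings, shown with the match in capitals.
HLA-B, chr6:31357268-31357297, minus strand: ccaggatactcgTGACGcgtccccacttcc
HLA-C, chr6:31272180-31272209, minus strand: cctgaatactcaTGACGcgtccccaattcc
The NF-kB motif, searched as GGG and, after any 2 bases, TTCCC, was in *HLA-B* alone of the 7 genes and in 2.17% of all windows, at 177 to 168 bases before the start.
HLA-B, chr6:31357337-31357366, minus strand: gcgcagcgttGGGGATTCCCcactcccctg
The gamma-interferon activated site, searched as TTCNNNGAA, was found in *TAP1* alone, in the window of its other RefSeq start, and in 7.67% of all windows. A match of letters does not show binding.

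In 3′ UTRs, the words GATTACT and ACACATC were searched because earlier results of these data had singled them out. Of 13753 tested coding genes with a 3′ UTR of at least 50 bases in the canonical transcript, 7.79% hold GATTACT and 9.65% hold ACACATC. None of the 9 genes holds GATTACT. The word ACACATC is present once in *TAPBP*, which rose, and once in *TAP2*, which was not called, shown with the word in capitals.
TAPBP, bases 1865 to 1894 of ENST00000434618: ttttaaaaaacACACATCttatggcattca
TAP2, bases 3789 to 3818 of ENST00000374897: tgcaacattgtACACATCactggttgttgg

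Around the 9 genes, most called genes that load and check class I molecules were lower. Of 10 tested genes for peptide loading and quality control, 1 rose and 4 fell, with a median log2 fold change of -0.11. For this and the following lists, the shares over all tested genes were 9.87% higher and 10.6% lower. *CALR*, the chaperone calreticulin that works with tapasin, went up from 424 to 453 CPM, by 0.10 (SE 0.02) on the log2 scale. *CANX* (calnexin) fell by 0.11, *GANAB* (glucosidase II) by 0.16 and *ERAP1*, which trims peptides in the endoplasmic reticulum, by 0.40 on the log2 scale. *UGGT1*, which tags misfolded glycoproteins for another round of folding, fell by 0.12 and was named after its values were seen. With each library left out in turn, *GANAB* was called in 6 of 6 fits, *CALR* and *CANX* in 3, and *ERAP1* and *UGGT1* in 2. *CALR* was lost without a low-count filter and without control replicate 3 or IGF2BP3 KD replicate 2 or 3, *CANX* without control replicate 3 or IGF2BP3 KD replicate 1 or 3, and *ERAP1* without control replicate 2 or 3 or IGF2BP3 KD replicate 2 or 3. *UGGT1* was lost without control replicate 2 or any 1 of the IGF2BP3 KD libraries. Of 5 tested cytosolic peptidases 0 rose and 2 fell by edgeR's test, *LAP3* (lost without replicate 1 or 2 of either group) and *THOP1* (lost without control replicate 2 or IGF2BP3 KD replicate 1 or 3), and none of the 5 had a positive log2 fold change at an unadjusted p under 0.05.

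The immunoproteasome subunits replace constitutive ones and favor class I peptides. Of 6 tested genes for it and for the proteasome activator, 3 rose and 1 fell, beside 9.87% and 10.6% of all tested genes. *PSMB10* rose from 10.7 ± 1.01 to 13.9 ± 0.564 CPM (SD, n = 3), or 0.38 ± 0.09 on the log2 scale (SE; adjusted p = 0.0141). It shares 39.4% of its exonic bases with a gene on the same strand. *PSME1*, a subunit of the activator PA28, rose by 0.24 and *PSME3*, a nuclear activator, fell by 0.15 on the log2 scale. *PSMB9*, the neighbor of *TAP1*, had 31 to 55 counts in control and 61 to 92 counts in IGF2BP3 KD libraries, or 1.01 ± 0.31 on the log2 scale (SE; adjusted p = 0.0411). This call was made in 1 of the 6 fits that left out a library, the one without control replicate 1, and lost with DESeq2, without a low-count filter and with the replicate block. *PSMB10* was lost without control replicate 2 or 3 or IGF2BP3 KD replicate 2, and *PSME1* without control replicate 2 or IGF2BP3 KD replicate 1 or 3. *PSMB8*, another immunoproteasome subunit, was at 2.31 and 2.46 CPM, with a 95% interval of the log2 fold change from -0.50 to 0.68. Of the 3 constitutive catalytic subunits, *PSMB7* fell by 0.16 on the log2 scale, and *PSMB5* and *PSMB6* were not called.

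Among 18 tested transcription regulators of class I genes, 1 rose and 6 fell, beside 9.87% and 10.6% of all tested genes. Their median log2 fold change was -0.06. *NFYA*, a subunit of the factor NF-Y that binds CCAAT, changed most, from 231 to 133 CPM, or -0.79 ± 0.03 on the log2 scale (SE; adjusted p = 3.43e-08). *EZH2*, *SUZ12* and *EED*, subunits of the repressive complex PRC2, fell by 0.30, 0.37 and 0.28 on the log2 scale, each in 6 of 6 fits that left out a library. *NFKB1*, a subunit of NF-kB, and *ATF1*, which binds the cyclic AMP response element, fell by 0.26 and 0.31, also in 6 of 6 such fits. *RFXANK*, a part of the RFX complex on class I promoters, rose by 0.25, and the call was lost without IGF2BP3 KD replicate 2. *IRF1* was at 27.8 and 26.7 CPM, with a 95% interval of the log2 fold change from -0.19 to 0.08. *RFX5* was at 44.6 and 44.3 CPM (-0.15 to 0.13).

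Of 14 tested genes for interferon receptors and JAK-STAT signaling, 2 rose and 3 fell, beside 9.87% and 10.6% of all tested genes. Their median log2 fold change was -0.05. *IFNGR2* and *IFNAR1*, each 1 chain of the receptors for interferon gamma and for type I interferons, rose by 0.50 and 0.38 on the log2 scale. *IFNAR2*, the other chain of the type I receptor, fell by 0.30, and *PTPN2*, a phosphatase that dampens JAK-STAT signaling, fell by 0.52 ± 0.04 (SE; adjusted p = 1.2e-05). *IFNAR2* was lost without control replicate 3 or IGF2BP3 KD replicate 1 or 3. *IFNGR2* and *IFNAR1* kept their calls in 6 of 6 fits that left out a library.

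Genes linked to class I turnover and surface down-regulation were tested as the counterpart, and some of them act on misfolded proteins in general. Of 15 tested, 4 rose and 1 fell, beside 9.87% and 10.6% of all tested genes, with a median log2 fold change of 0.13. *SEL1L* and *DERL1*, parts of the machinery that sends misfolded proteins from the endoplasmic reticulum to degradation, rose by 0.46 and 0.18 on the log2 scale. *TMEM129*, a ubiquitin ligase of that route, rose by 0.23, with the call lost without IGF2BP3 KD replicate 1. *TMEM127*, an adaptor that lowers surface class I, rose by 0.15, with the call lost without a low-count filter and without control replicate 2 or IGF2BP3 KD replicate 2 or 3. The sums over the list were 825 to 840 CPM in control and 901 to 930 CPM in IGF2BP3 KD libraries.

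**Figure D5:**
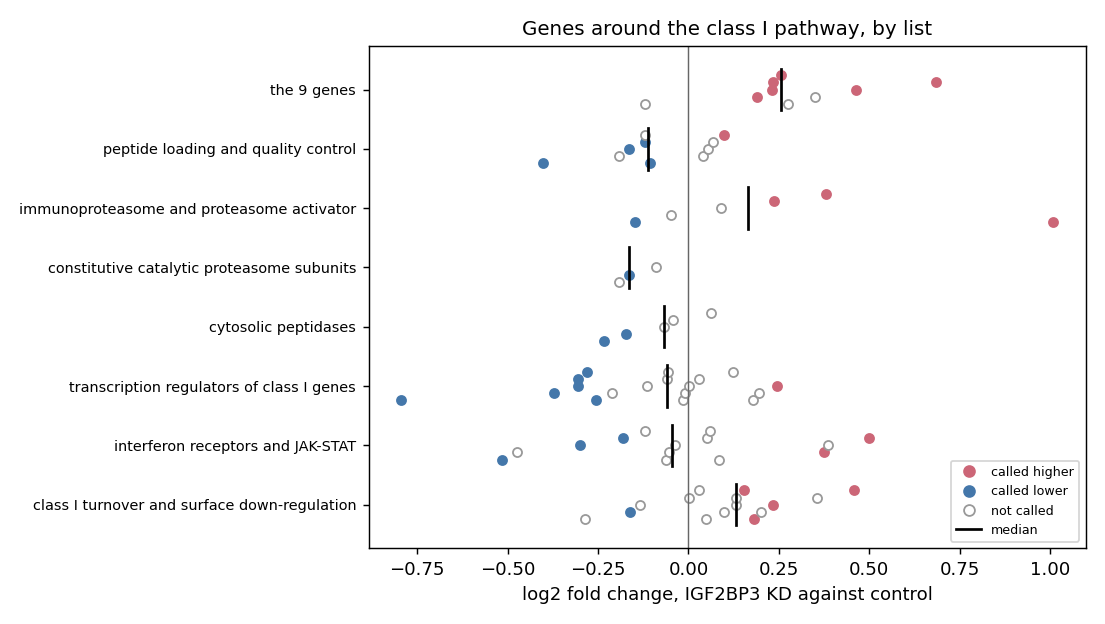
Log2 fold changes of single genes in the lists around the class I pathway; filled points passed an adjusted p under 0.05, open points did not, and vertical lines are medians over the tested genes of a list. The median of the 9 genes is 0.25, that of peptide loading and quality control -0.11 and that of transcription regulators -0.06.

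The genes whose log2 CPM over the 6 libraries was most like that of *HLA-B* were *DQX1*, *VHL*, *GVQW3*, *PEX26* and *MYH10*, with Pearson's r from 0.997 to 0.998 among 9856 genes whose mean was 10 CPM or more. All 5 had a positive log2 fold change, from 0.19 to 0.41. This likeness is a description over 6 libraries that form 2 groups.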

How the data were processed

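RNA-seq was compared between 3 control and 3 IGF2BP3 KD libraries of OE-19 cells. Poly(A) RNA was prepared with a directional kit and sequenced as paired reads of 150 bases. The authors used hisat2 (default settings, genome hg38) and featureCounts, and the deposited values are raw counts per gene. The submitters' processing notes also name fastp. Versions, annotation release and strand setting are not given in the sources used here. The table lists 60480 identifiers after 132 repeated entries of 44 identifiers were left out, and total counts were 53424071 to 69989087, so counting error is small except for genes with few counts, such as *HLA-F* and *PSMB9*.

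The quasi-likelihood test of edgeR 4.0.16 was run under R 4.3.3 (glmQLFit, glmQLFTest, no block; TMM; filterByExpr keeping genes past 10 counts and 15 in total; Benjamini-Hochberg adjustment over 19778 genes, threshold 0.05), the fit used only these 6 libraries, and it was tested on simulated data. CPM values are TMM-scaled. Intervals are 95% intervals from the fit. Ratios and sums were tested with exact permutation tests in scipy 1.17.1, run in Python 3.11.15 with numpy 2.4.6 and pandas 2.3.3, and figures were drawn with matplotlib 3.10.9.

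The 9 genes and the gene lists were chosen with earlier results of these data known. Named are the 9 genes, at most 4 called genes per list with a mean of at least 1 CPM, taken by smallest p, and the 5 genes most like *HLA-B*. *IGF2BP3* served as the check, and genes that overlap or neighbor one of the 9 were named where a count depends on them. One called list gene is not reported here. Other list genes were named after their values were seen. Gene positions, canonical transcripts, 3′ UTRs and exon overlaps come from GENCODE v44 on hg38, promoter windows from RefSeq. No library duplicated another: a chi-square over genes per degree of freedom was 9.86 to 17.6 within groups and 46.3 to 58.2 between them. Alternatives were DESeq2 1.42.0, RLE scaling, other filters, a threshold of 0.01, the replicate block, overlapping genes summed and each library left out.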

Additional observations from a re-analysis of the deposited data

How the results depend on the processing

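With a threshold of 0.01, 1314 of all genes were lower and 1098 higher, and 5 of the 9 genes were higher, without *HLA-B*. Of the 9 genes, 6 were higher and 0 lower with DESeq2, and likewise by edgeR's test with RLE scaling, without a filter, with a filter of 10 counts in each library and with the replicate block. Adding overlapping genes changed no call among *HLA-B*, *HLA-F*, *TAP1* and *TAP2*, the genes whose overlapping genes were among the counted identifiers. Leaving out 1 library at a time, all genes gave 1641 to 1970 lower and 1414 to 1741 higher, and the 9 genes gave 5 to 6 higher and 0 lower. *HLA-B* alone of the 6 lost its call in such fits, in 2 of 6. Log2 fold changes were then 0.16 to 0.22 for *HLA-C*, 0.21 to 0.25 for *HLA-E*, 0.22 to 0.29 for *B2M* and 0.40 to 0.52 for *TAPBP*. The summed heavy chains had a log2 ratio of 0.18 to 0.23 with a library left out, and 0.20 with RLE scaling or the pseudogenes added and 0.22 without a scaling factor. The exact permutation test cannot go below 0.1 with all 6 libraries, and it gave p = 0.2 whenever a library was left out. By edgeR's fit of the sum with the replicate block, the log2 fold change was 0.2032 (adjusted p = 0.00306).

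The replicate numbers do not pair the libraries, since deviations of same-numbered libraries from their group means had correlations of -0.03 to 0.01. The replicate block gave 2026 lower and 1875 higher genes and changed no call among the 9 genes. Among the 9 genes, *HLA-F* and *NLRC5* had the fewest counts and the largest SE of the log2 fold change, 0.22 and 0.13.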

Other observations

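Of 10 tested class I-like genes and ligands of the receptor NKG2D, 3 rose and 0 fell by edgeR's quasi-likelihood test, and 0 of the 10 had a negative log2 fold change at an unadjusted p under 0.05. Of all tested genes, 9.87% were called higher. *FCGRT*, the heavy chain of the neonatal Fc receptor, which also pairs with B2M, rose from 63.6 ± 2.65 to 82.2 ± 1.35 CPM (SD, n = 3), which is 0.37 (SE 0.05) in log2 terms. *AZGP1*, a secreted protein with a class I fold, rose from 122 to 155 CPM (0.34 in log2 terms). Both were called in 6 of 6 fits that left out a library. *RAET1G*, a ligand of NKG2D, was named after its values were seen and rose at a low level, from 0.154 to 0.614 CPM, and its call was lost without IGF2BP3 KD replicate 2. *MICA*, *MICB* and *CD1D* had 0 counts in each library, where a count of 0 allows up to 3 counts.

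MHC class II genes were largely silent. Of 15 listed genes, 7 had 0 counts in all libraries, among them *HLA-DRA*, and the invariant chain *CD74* had at most 9 counts. *HLA-DMA*, which helps to load peptides on class II, rose by 0.63 on the log2 scale, to 3.62 CPM from 2.34, and was called in 1 of 6 fits that left out a library, the one without control replicate 2. *IFI30*, a lysosomal thiol reductase induced by interferon gamma, had 3760 to 5155 counts in control libraries and 4387, 1569 and 5427 counts in IGF2BP3 KD replicates 1, 2 and 3, so 1 library stood apart. It shares 42.5% of its exonic bases with another gene on the same strand. Of the class I pseudogenes, 3 were tested and 0 were called, and *HLA-H* was the most abundant at 10.2 CPM in control and 11.2 CPM in IGF2BP3 KD cells.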
